A study of Sus scrofa with 8 samples.

Results

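The 10 genes described here are markers of smooth muscle and pericytes, the mural cells that wrap blood vessels, measured in the right ventricular free wall of pigs. They were chosen by name, by a rule that uses no measured value, but with earlier results of these data known. CNN1, TAGLN, MYH11, SMTN, LMOD1, CALD1 and MYLK are the contractile and cytoskeletal genes, and PDGFRB, RGS5 and CSPG4 the pericyte genes. All 10 matched a gene model in the deposited count table, of 31908 models in all. Bulk RNA was sequenced from 4 control and 4 banded Yorkshire cross pigs, with 1 library per animal. The banded animals were castrated male piglets whose main pulmonary artery was constricted with a tape at 4.5 ± 0.6 weeks of age and 6.4 ± 1.3 kg, until right ventricular peak systolic pressure reached about 30 to 40 mmHg. The controls, of similar age and weight, were kept for 8 weeks and had no treatment, and their labels state neither their sex nor a sham operation. How long after banding the tissue was taken is not given in the sources used here. Banding therefore cannot be told apart from the surgery, or from sex where the controls differ in it.

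In smooth muscle, calcium-bound calmodulin activates myosin light chain kinase (MYLK), which phosphorylates the regulatory light chain and lets smooth muscle myosin (MYH11) pull on actin. Calponin (CNN1), transgelin (TAGLN), smoothelin (SMTN), leiomodin 1 (LMOD1) and caldesmon (CALD1) bind or organise the actin filaments of these cells. Most of these genes are targets of serum response factor (SRF) and its coactivator myocardin (MYOCD). Pericytes share part of this set and are recognised by the receptor PDGFRB, which binds PDGF-B from endothelial cells, by RGS5, a regulator that shortens G-protein signals, and by the proteoglycan CSPG4 (NG2). None of these markers is exclusive to mural cells: CNN1, TAGLN and smooth muscle actin also occur in myofibroblasts and in the developing heart, and CALD1, MYLK and PDGFRB in several stromal cells. The counts are per gene, so smooth muscle and non-muscle isoforms of CALD1 and MYLK were not separated. In bulk tissue, fewer cells of a type and less RNA per cell cannot be told apart.

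Each library held 31033679 to 34183338 counts, and every one of the 10 genes had between 88 and 43600 counts in every library. Levels are given as CPM, the counts of a gene scaled to library size with the trimmed mean of M-values (TMM). Differences are log2 fold changes of banded over control with their standard error, from the quasi-likelihood test of edgeR with Benjamini-Hochberg adjustment over the 13697 genes that passed the filter on low counts. A gene was called at an adjusted p under 0.05. Banded 3 stood apart from the other libraries. Its Spearman correlation across genes with the other banded libraries was 0.957 to 0.964, against 0.970 to 0.977 among those 3. With the controls it was 0.943 to 0.950, against 0.959 to 0.968 for the other 3 banded libraries. Control 4 stood somewhat apart from the other controls (0.976 to 0.980, against 0.983 to 0.985 among controls 1 to 3). Mitochondrial-genome transcripts took 30.5% of the counts in banded 3, 43.9% in control 4 and 35.3% to 39.7% in the other libraries. The authors' deposited table of fold changes matched 7 libraries, without banded 3: its mean normalised signal was within 1% of the mean over those 7 for 100% of 12959 genes, against 18.2% of genes for the mean over all 8. Values below are therefore given with and without banded 3 where it matters.

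With all 8 libraries CNN1 was far higher on the mean in banded animals, 7 of the other 9 genes had negative fold changes, and no member passed the threshold. By edgeR 0 of the 10 genes were called higher, against 3.47% of all tested genes, and 0 lower, against 3.5% (6.97% in either direction). At an unadjusted p under 0.05 there were 6 members, against 23.8% of all genes, of which 5 were lower, against 11.7%. DESeq2 called 1 member higher and 3 lower, where it called 5.38% of its tested genes higher and 5.06% lower (10.4% in all). The limma-voom fit with quality weights called 1 higher and 1 lower, against 4.99% and 4.8% of genes (9.79% in all). Without banded 3, edgeR called 1 higher and 1 lower, against 3.31% and 3.41% of genes (6.72% in all). Without both control 4 and banded 3, an alternative added after seeing the data, it again called 1 higher and 1 lower, against 3.44% and 3.61% (7.05% in all). Fold changes were negative for 7 members, against 48.4% of all tested genes, and their median was -0.42 on the log2 scale, beside 0.015 over all genes. The groups did not overlap for 1 gene on the high side (CNN1), against 7.66% of all tested genes, and for 3 on the low side (SMTN, LMOD1 and RGS5), against 8.2% (15.9% in either direction).

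CNN1 encodes basic calponin, a protein of the actin filament that restrains actomyosin, and its model lies on chromosome 2 (70182925 to 70197384, plus strand, 8 exon blocks). It was at 73.2, 61.7, 116 and 86.2 CPM in controls 1 to 4 and at 349, 273, 1348 and 156 CPM in banded 1 to 4. Every banded animal was above every control, and banded 3 held by far the most. Over all 8 libraries its log2 fold change was 2.66 ± 0.69 (edgeR adjusted p = 0.0639), which missed the threshold. Without banded 3 the difference was smaller and less variable, 1.62 ± 0.29, and was called (edgeR adjusted p = 0.0130), as it was without banded 4 (2.96 ± 0.60, adjusted p = 0.0364). DESeq2 on all 8 libraries also called it (adjusted p = 0.00257). So did limma-voom, with 2.00 ± 0.38 (adjusted p = 0.00836). Over the 16 alternatives the log2 fold change of CNN1 was positive in all, and its adjusted p ranged from 0.00257 to 0.163. In the authors' deposited table, which states control over banded, CNN1 had a log2 fold change of -1.62 ± 0.26 with an adjusted p of 8.87e-08. Markers of activated fibroblasts, cells that can also express CNN1 and TAGLN, were mostly higher in banded animals too. Of these, 12 matched, none at 0 in all libraries, and 11 were tested. By edgeR 6 were called higher and 0 lower, against 3.47% and 3.5% of all tested genes (7 and 0 at an unadjusted p under 0.05, 7 and 0 by DESeq2). The 1 tested marker with a negative log2 fold change was ACTA2 (-0.44, edgeR adjusted p = 0.230). Summed over the list the markers stood at 810 to 915 CPM in controls, and at 1474, 2371, 2273 and 1430 CPM in banded 1 to 4. That sum was highest in banded 2, whereas CNN1 was highest in banded 3. The part of these cells in the level of CNN1 was not tested.

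**Figure D1:**
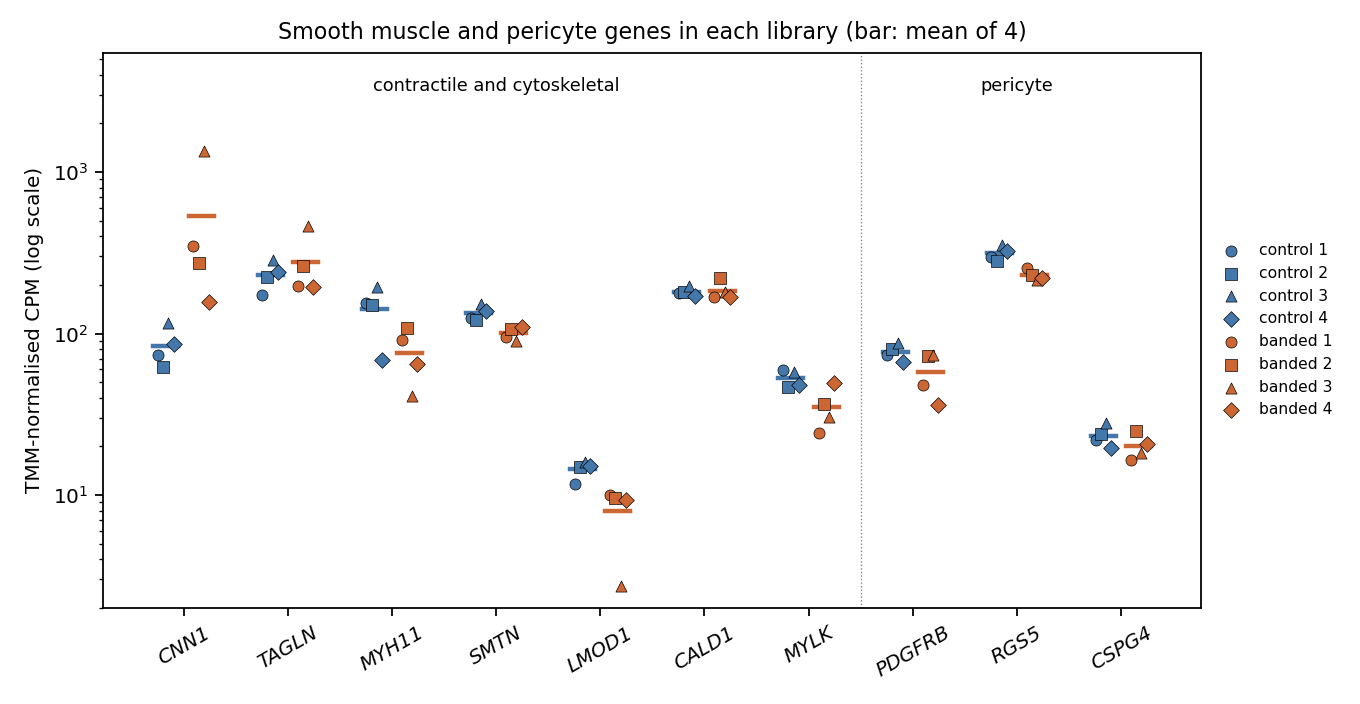
TMM-normalised CPM on a log axis for the 10 genes, with 1 symbol per library (blue control, orange banded) and a bar at the mean of 4. The banded libraries of CNN1 lie at 156 to 1348 CPM, all above the controls at 61.7 to 116, while those of SMTN, LMOD1 and RGS5 all lie below their controls.

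TAGLN, the actin-crosslinking protein SM22-alpha, is often read together with CNN1. Its model is on chromosome 9 (44560785 to 44567385, plus strand). TAGLN was at 174, 223, 287 and 242 CPM in controls and at 197, 264, 460.3 and 195 CPM in banded animals. Banded 3 was again the highest library, but the other 3 banded libraries lay within the control range. TAGLN had a log2 fold change of 0.27 ± 0.27 (edgeR adjusted p = 0.599), which turned to -0.085 without banded 3 (adjusted p = 0.845).

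MYH11, the smooth muscle myosin heavy chain and one of the most specific markers of differentiated smooth muscle, lies on chromosome 3 (7002733 to 7143094, plus strand). It was at 155, 150.0, 194 and 68.4 CPM in controls and at 91.3, 108, 40.8 and 64.7 CPM in banded animals. Controls 1 to 3 were above all banded libraries, while control 4 lay among them. MYH11 had a log2 fold change of -0.90 ± 0.36 (edgeR adjusted p = 0.174). Without banded 3 it was -0.69 ± 0.33 (edgeR adjusted p = 0.263), and without control 4 it was -1.13 ± 0.29 (adjusted p = 0.0567). Without both control 4 and banded 3 it was -0.92 ± 0.20 and called lower (adjusted p = 0.0265). DESeq2 on all 8 libraries called it lower as well (adjusted p = 0.0414), and the adjusted p ranged from 0.0265 to 0.355 over the 16 alternatives. A total of 475 bases of the MYH11 exons lie opposite those of NDE1 on the other strand, and the authors' counting used strand.

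LMOD1, which nucleates actin filaments in smooth muscle, lies on chromosome 10 (24164792 to 24193820, minus strand). LMOD1 was at 11.7, 14.8, 15.9 and 15.1 CPM in controls and at 9.98, 9.64, 2.72 and 9.32 CPM in banded animals. All 4 banded libraries were below all controls, 3 of them close together and banded 3 far lower. LMOD1 had a log2 fold change of -0.86 ± 0.34 (edgeR adjusted p = 0.154). Without banded 3 it was -0.58 ± 0.16 and just passed the threshold (adjusted p = 0.0488), and the adjusted p ranged from 0.0488 to 0.297 over the 16 alternatives. The exons of LMOD1 share 1697 bases with the opposite strand of SHISA4, which was at 13.1 ± 2.09 CPM in controls and rose in banded animals to 47.6 ± 4.26 CPM (SD, n = 4; log2 fold change 1.86 ± 0.14, edgeR adjusted p = 9.25e-05). Whether SHISA4 reads bear on the LMOD1 counts was not tested.

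SMTN, a cytoskeletal protein of contractile smooth muscle, lies on chromosome 14 (47879317 to 47902699, plus strand). SMTN was at 125, 121, 153 and 138 CPM in controls and at 94.7, 106, 90.1 and 110.2 CPM in banded animals. The groups did not overlap, and both were tight. SMTN had a log2 fold change of -0.42 ± 0.13 (edgeR adjusted p = 0.0748, DESeq2 adjusted p = 0.0436), with an adjusted p of 0.0436 to 0.217 over the alternatives. Without banded 3 the log2 fold change was -0.37 ± 0.14 (edgeR adjusted p = 0.131).

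MYLK, the kinase that starts contraction, lies on chromosome 13 (136508808 to 136809674, plus strand). MYLK was at 59.7, 46.6, 57.4 and 48.0 CPM in controls and at 24.0, 36.5, 30.6 and 49.7 CPM in banded animals. Banded 1 to 3 were below every control, and banded 4 was inside the control range. MYLK had a log2 fold change of -0.59 ± 0.20 (edgeR adjusted p = 0.103), and -0.53 ± 0.21 without banded 3 (edgeR adjusted p = 0.177). It was called lower without banded 4 (-0.80 ± 0.17, adjusted p = 0.0201) and by limma-voom (-0.73 ± 0.19, adjusted p = 0.0330), and the adjusted p ranged from 0.0201 to 0.241 over the alternatives.

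CALD1, which binds actin and myosin and blocks their interaction until phosphorylated, lies on chromosome 18 (14267955 to 14539017, minus strand). CALD1 was at 177, 181, 198 and 169.9 CPM in controls and at 169, 219.8, 181 and 168 CPM in banded animals. Among the 10 genes it differed least between groups. Its log2 fold change was 0.023 ± 0.13 (edgeR adjusted p = 0.939), and its sign changed in 5 of the 16 alternatives.

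**Figure D2:**
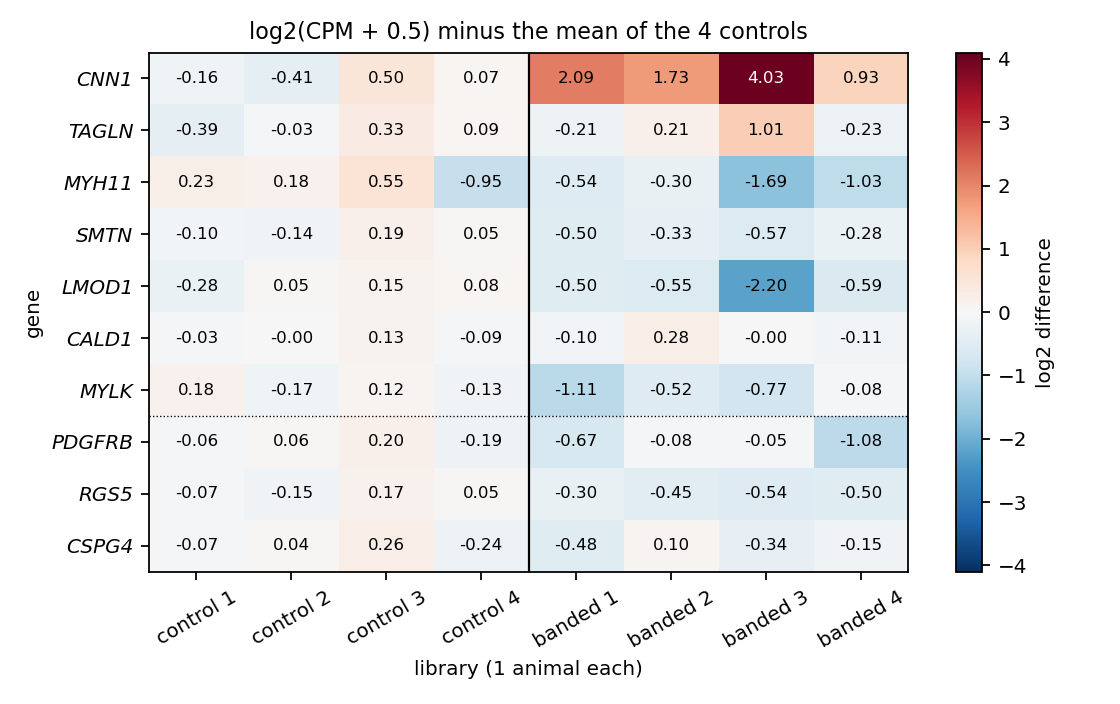
Each cell gives log2(CPM + 0.5) of a gene in a library minus the mean of the 4 controls, with red for higher and blue for lower. Banded 3 is the most extreme library for CNN1 (4.03) and TAGLN (1.01) on the high side and for LMOD1 (-2.20) and MYH11 (-1.69) on the low side.

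Within a single animal the contractile genes did not all lie on the same side. Banded 3 had the highest CNN1 and TAGLN of all 8 libraries and at the same time the lowest MYH11, SMTN, LMOD1 and RGS5. Control 3 was the highest library for 6 genes: MYH11, SMTN, LMOD1, PDGFRB, RGS5 and CSPG4. To compare genes with each other, the log2 ratio of each of the 45 pairs of the 10 genes was tested with an exact two-sided permutation of the 70 assignments of 8 animals, an analysis added after seeing the data. The smallest p that 4 against 4 animals allow is 0.0286. It was reached by 14 of the 45 pairs, which include all 9 pairs with CNN1, and the adjusted p for these was 0.0918, so no pair passed 0.05. A pair could pass 0.05 after adjustment only if many more pairs reached that smallest p, so this outcome says little about any pair. The 9 pairs with CNN1 share 1 gene and are not separate results. Reaching the smallest p means only that the ratios of control and banded animals do not overlap. How often pairs of other genes reach it was not counted. The log2 ratio of CNN1 to MYH11 was -0.69 ± 0.72 in the control group (SD, n = 4) against 2.40 ± 1.79 in the banded group, a difference of 3.09, or 2.21 without banded 3. The log2 ratio of CNN1 to TAGLN was -1.48 ± 0.27 in controls, and in banded animals 0.53 ± 0.83, without overlap. That difference was 2.00, or 1.66 without banded 3. The 5 other pairs at that p were TAGLN with LMOD1, TAGLN with PDGFRB, LMOD1 with CALD1, SMTN with CALD1 and CALD1 with RGS5.

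RGS5, a regulator of G-protein signalling that is enriched in pericytes and arterial smooth muscle, was the most abundant of the 3 pericyte genes. Its model is on chromosome 4 (87286953 to 87344251, plus strand), and 249 of its exon bases are shared with an unnamed model on the same strand, which counting by strand does not separate and which was at 0 counts in all 8 libraries. RGS5 was at 299, 283, 355 and 326 CPM in controls and at 255, 229, 216 and 221 CPM in banded animals. The groups did not overlap and varied little within themselves. RGS5 had a log2 fold change of -0.45 ± 0.13 (edgeR adjusted p = 0.0598), the smallest adjusted p of the 10 genes. DESeq2 called it lower (adjusted p = 0.0154), as did edgeR with scaling by library size alone (-0.55 ± 0.14, adjusted p = 0.0380), a scaling that moved the median over all genes from 0.015 to -0.085. Over the 16 alternatives the log2 fold change of RGS5 stayed between -0.55 and -0.39, and its adjusted p between 0.0154 and 0.183. Without banded 3 edgeR gave -0.42 ± 0.14 and did not call RGS5 (adjusted p = 0.103).

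PDGFRB, the receptor through which PDGF-B recruits pericytes, lies on chromosome 2 (151155754 to 151192647, minus strand). PDGFRB was at 73.3, 79.8, 87.8 and 66.8 CPM in controls and at 47.9, 72.3, 73.8 and 35.9 CPM in banded animals. Banded 1 and banded 4 were below every control, and the other 2 banded libraries lay inside the control range. PDGFRB had a log2 fold change of -0.42 ± 0.21 (edgeR adjusted p = 0.262), and -0.56 ± 0.21 without banded 3 (edgeR adjusted p = 0.147). PDGFRB was not called in any alternative. CSPG4, the proteoglycan NG2, lies on chromosome 7 (57949455 to 57988337, plus strand). CSPG4 was at 22.0, 23.8, 27.8 and 19.5 CPM in controls and at 16.4, 24.9, 18.1 and 20.8 CPM in banded animals, with overlapping groups. Its log2 fold change was -0.22 ± 0.16 (edgeR adjusted p = 0.456), and it too was called in no alternative.

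**Figure D3:**
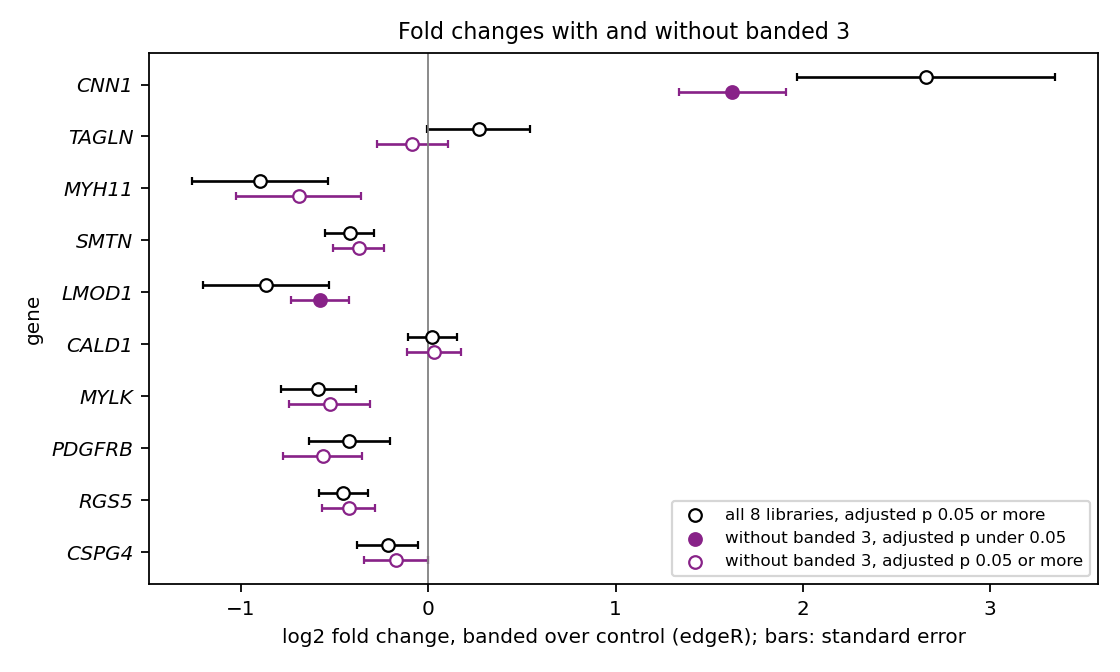
Log2 fold change of banded over control with its standard error for the 10 genes, over all 8 libraries (black) and without banded 3 (purple), filled where the edgeR adjusted p is under 0.05. CNN1 shrinks from 2.66 to 1.62 and LMOD1 from -0.86 to -0.58 without banded 3, and only these 2 are filled.

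In the authors' deposited table, 3 of the 10 genes had an adjusted p under 0.05: CNN1, LMOD1 (log2 fold change of control over banded 0.58 ± 0.18, adjusted p = 0.0191) and RGS5 (0.42 ± 0.14, adjusted p = 0.0230). A DESeq2 fit made here without banded 3 gave CNN1 a log2 fold change of banded over control of 1.62 (adjusted p = 3.59e-08), LMOD1 -0.58 (0.0255) and RGS5 -0.42 (0.0312). The share of all genes with an adjusted p under 0.05 was not counted for the authors' comparison or for this fit. On all 8 libraries DESeq2 called CNN1, MYH11, SMTN and RGS5, and not LMOD1 (adjusted p = 0.0653), where it called 10.4% of all its tested genes. MYH11 and SMTN had adjusted p of 0.102 and 0.0713 in the authors' deposited table.

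Compared per kilobase of gene model, so that genes of different length can be set side by side, TAGLN was the most abundant of the 10 in controls (117 ± 23.6 CPM per kilobase, SD, n = 4). RGS5 followed at 58.6 ± 5.88, then SMTN at 33.6 ± 3.62, CNN1 at 28.6 ± 7.91 and CALD1 at 26.3 ± 1.74 CPM per kilobase. SMTN overlapped CNN1, and CNN1 overlapped CALD1, whereas the steps from TAGLN to RGS5, from RGS5 to SMTN and from CALD1 to MYH11 did not overlap. MYH11 (16.8 ± 6.26) and PDGFRB (12.5 ± 1.46) overlapped, and MYLK (5.48 ± 0.68), LMOD1 (3.95 ± 0.51) and CSPG4 (2.93 ± 0.44 CPM per kilobase) closed the order, the last 2 of them with overlapping ranges. In banded animals CNN1 had the highest mean level, 181 ± 187 CPM per kilobase, but its range of 53.1 to 458 overlapped that of TAGLN (98.1 to 232), and it exceeded TAGLN in 2 of 4 animals. Its first place rested on banded 3: without that library CNN1 was second, at 88.3 ± 33.1 CPM per kilobase against 110.1 ± 19.8 for TAGLN (SD, n = 3). The other genes kept close to their control order in banded animals, with CALD1 above SMTN, PDGFRB above MYH11 and CSPG4 above LMOD1 on the mean, and with overlapping ranges in each of these 3 pairs. Without banded 3 the mean of MYH11 (10.4 CPM per kilobase) was again above that of PDGFRB (8.47), and that of LMOD1 above that of CSPG4.

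**Figure D4:**
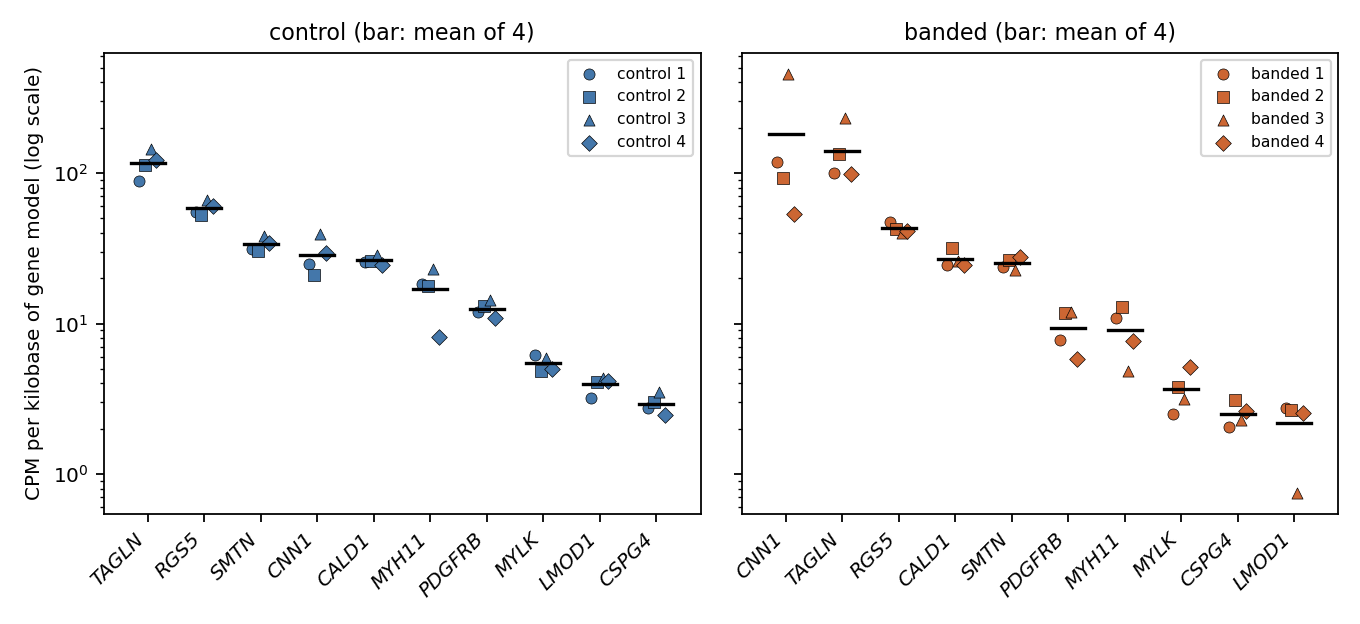
CPM per kilobase of gene model on a log axis, with genes in order of their mean in controls (left) and in banded animals (right), 1 symbol per library and a bar at the mean of 4. CNN1 stands in the fourth place at 28.6 in controls and in the first at 181 in banded animals, where its 4 libraries spread from 53.1 to 458. Without banded 3 its mean of 88.3 is below that of TAGLN (110.1).

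Among 42 further smooth muscle contractile and cytoskeletal genes, 40 matched and 39 were tested, with a median log2 fold change of -0.0081. By edgeR 5 were called higher and 0 lower, against 3.47% and 3.5% of all tested genes. The counts were 9 and 4 at an unadjusted p under 0.05, 6 and 1 by DESeq2, and 5 and 2 by limma-voom. The genes called by edgeR were DES, CSRP2, ITGA7, CASQ2 and MYL9. DES (desmin), CASQ2 (cardiac calsequestrin) and ITGA7 (a laminin receptor of muscle) are also genes of cardiomyocytes. DES rose from 2899 ± 649 to 10958 ± 1911 CPM (SD, n = 4; log2 fold change 1.92 ± 0.20, edgeR adjusted p = 0.00047). Beside them, 10 cardiomyocyte markers, none at 0, summed to 27224 to 36371 CPM in controls, and to 36691 to 50717 CPM in banded animals, highest in banded 3, with 2 called higher and 0 lower (5 and 3 at an unadjusted p under 0.05, 5 and 2 by DESeq2), and their part in these values was not tested. MYL9, the regulatory light chain that MYLK phosphorylates, was at 409, 198, 252 and 513 CPM in controls and at 756, 568, 836 and 802 CPM in banded animals. Every banded library was above every control, and MYL9 rose by 1.11 ± 0.28 on the log2 scale (edgeR adjusted p = 0.0378). The call of MYL9 was lost without control 1 (0.0736), control 2 (0.0815), control 3 (0.112), banded 1 (0.0655), banded 3 (0.0697) or banded 4 (0.0687, all edgeR adjusted p). CSRP2, a LIM-domain protein of smooth muscle, rose from 11.2 ± 2.78 to 32.4 ± 10.1 CPM (SD, n = 4; log2 fold change 1.53 ± 0.24, edgeR adjusted p = 0.0051), and kept its call in all 16 alternatives. CASQ2 was not called with library size alone (0.0511), nor when banded 1 (0.0551), control 2 (0.0692) or control 3 (0.0835) was left out. ACTA2, smooth muscle alpha-actin and the classical partner of these markers, was at 139, 141, 158 and 101 CPM in controls and at 87.9, 106, 136 and 68.5 CPM in banded animals, with a log2 fold change of -0.44 ± 0.21 that was not called (edgeR adjusted p = 0.230). The sign of ACTA2 was that of MYH11, opposite to CNN1, and its groups overlapped.

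Of 34 further pericyte and mural genes, 33 matched and 30 were tested, with a median log2 fold change of -0.17. Of the tested genes, 1 was called higher and 3 lower by edgeR, against 3.47% and 3.5% of all tested genes. STEAP4, a metalloreductase found in pericytes, was at 9.80, 7.08, 6.94 and 4.85 CPM in controls and at 1.93, 2.64, 0.90 and 3.34 CPM in banded animals. It fell by 1.70 ± 0.36 on the log2 scale (edgeR adjusted p = 0.0196), a call that was lost without control 1 (0.0656), control 2 (0.0549) or control 3 (0.0527). PLXDC1 fell from 46.7 ± 5.20 to 30.2 ± 4.37 CPM (edgeR adjusted p = 0.0231). Leaving out banded 1 (0.0519), control 2 (0.0732) or control 3 (0.0832) ended that call. EBF2, a transcription factor, was lower with an edgeR adjusted p of 0.041 and lost its call without any 1 library except banded 3. ASPN, a small proteoglycan also made by fibroblasts, rose from 102 ± 16.5 to 169 ± 18.5 CPM (edgeR adjusted p = 0.0151), which no longer passed without control 1 (0.0609) or control 2 (0.0597). NOTCH3, the Notch receptor of mural cells, was at 62.4, 54.1, 69.7 and 38.0 CPM in controls and at 43.1, 45.5, 38.2 and 31.3 CPM in banded animals, with overlapping groups and no call (log2 fold change -0.50 ± 0.19, edgeR adjusted p = 0.132).

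The PDGF axis was covered by 12 genes, all tested, with a median log2 fold change of -0.31. Of these 12, 2 were called higher and 2 lower by edgeR, against 3.47% and 3.5% of all tested genes. PDGFB, the endothelial ligand of PDGFRB, was at 47.1, 42.3, 51.3 and 51.5 CPM in controls and at 25.1, 27.6, 34.9 and 34.1 CPM in banded animals. All banded libraries were below all controls, and PDGFB fell by 0.66 ± 0.14 on the log2 scale (edgeR adjusted p = 0.0189). Its call was lost without control 1 (0.0557) or control 3 (0.0662). PDGFD, another ligand of this receptor, was at 49.1 ± 9.67 and 40.3 ± 6.77 CPM (SD, n = 4 each) and was not called (edgeR adjusted p = 0.328). PDGFRA, the receptor of fibroblasts, fell from 59.4 ± 6.54 to 42.2 ± 5.38 CPM (edgeR adjusted p = 0.048), a call that was kept without banded 2 or banded 3 and lost without any 1 of the other 6 libraries (0.0648 to 0.151). PTPN11 and PIK3R1, which act downstream of the receptors, were called higher. The call of PTPN11 (log2 fold change 0.56 ± 0.11, edgeR adjusted p = 0.0147) did not hold with library size alone (0.0586), nor with control 1 (0.0584), control 2 (0.0555) or control 3 (0.0598) left out. PIK3R1 (adjusted p = 0.0497) kept its call in 5 of 16 alternatives.

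In the pathway that sets light chain phosphorylation, 36 of 40 entries matched and 32 genes were tested, with a median log2 fold change of -0.10. Of the 32, 4 were called higher and 5 lower by edgeR, against 3.47% and 3.5% of all tested genes. The higher genes included MYL9, MYL12A and PPP1R14B, and the lower genes were ITPR1, ITPR2, IRAG1, PPP1R12B and CACNA1C. ITPR2, an IP3-gated calcium release channel, was at 20.6, 24.0, 18.9 and 21.0 CPM in controls and at 11.9, 12.6, 10.3 and 10.2 CPM in banded animals (log2 fold change -0.90 ± 0.14, edgeR adjusted p = 0.00394). IRAG1, the substrate through which cyclic GMP kinase restrains that release, fell from 48.9 ± 3.92 to 30.5 ± 2.33 CPM (SD, n = 4; adjusted p = 0.00704). ITPR2, IRAG1 and PPP1R14B, a myosin phosphatase inhibitor (log2 fold change 1.02 ± 0.20, adjusted p = 0.0139), kept their calls in all 16 alternatives. PPP1R12B, a targeting subunit of myosin phosphatase, fell by 0.77 ± 0.17 (adjusted p = 0.0207) and was no longer called with control 1 (0.0647), control 2 (0.0737) or control 3 (0.0696) left out. MYL12A, ITPR1 and CACNA1C (adjusted p = 0.0478, 0.0368 and 0.0427) each lost their call without most single libraries, with adjusted p up to 0.146, 0.121 and 0.131.

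Of 32 entries for the transcriptional control of smooth muscle genes, 29 matched and 27 were tested, with a median log2 fold change of -0.23. Among the 27, 1 was called higher and 2 lower by edgeR, against 3.47% and 3.5% of all tested genes. SRF was at 61.1, 68.6, 69.7 and 78.1 CPM in controls and at 33.4, 36.1, 55.4 and 58.0 CPM in banded animals. All banded libraries were below all controls, but SRF missed the threshold (log2 fold change -0.60 ± 0.19, edgeR adjusted p = 0.0769). MYOCD was at 11.4, 18.0, 15.4 and 18.7 CPM in controls and at 12.8, 10.1, 9.18 and 15.3 CPM in banded animals, with overlapping groups (edgeR adjusted p = 0.235). FHL1, a LIM-domain gene also abundant in striated muscle, was the called rise, at 187 to 229 CPM in controls, and in banded animals at 574 to 1407 CPM (log2 fold change 2.06 ± 0.27, edgeR adjusted p = 0.00188). HEY2, a Notch target, and MEF2A were called lower (log2 fold change -1.23 ± 0.30 and -0.61 ± 0.16, edgeR adjusted p = 0.0371 and 0.0392). HEY2 kept its call in 9 of 16 alternatives and so did MEF2A, with adjusted p up to 0.104 and 0.117.

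**Figure D5:**
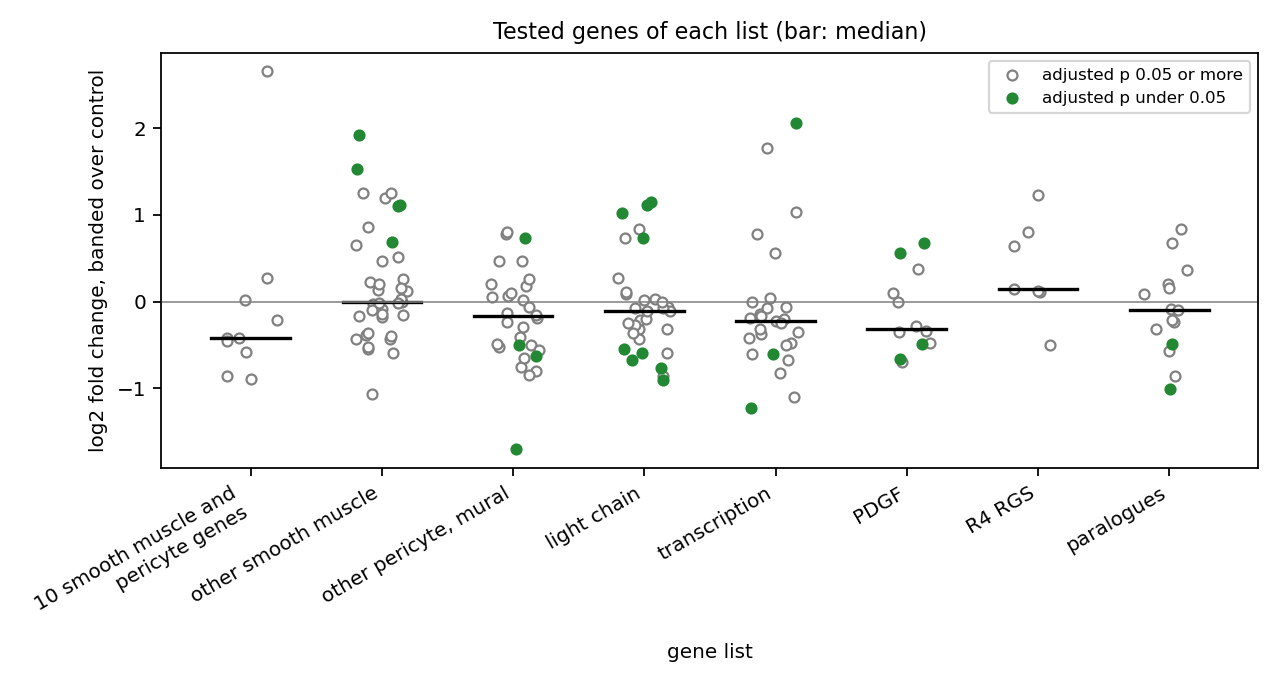
Log2 fold change of banded over control for each tested gene of the 10 and of the 7 surrounding lists, filled green where the edgeR adjusted p is under 0.05, with a bar at the median. The 10 genes have the lowest median (-0.42) and 1 point far above the rest, CNN1 at 2.66, and the further smooth muscle genes are called on the high side only, the paralogues on the low side only, the R4 family not at all and the other 4 lists on both sides.

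Paralogues of the 10 genes were also examined. Of 18 matched, 15 were tested. EdgeR called 0 higher and 2 lower (TMOD2 and PDGFRA), against 3.47% and 3.5% of all tested genes. The counts were 2 and 3 at an unadjusted p under 0.05, and 1 and 3 by DESeq2. TMOD2, a tropomodulin that caps actin filaments and is related to leiomodin, was at 15.7, 13.2, 13.6 and 12.1 CPM in controls and at 7.01, 7.22, 7.26 and 5.67 CPM in banded animals (log2 fold change -1.01 ± 0.16, edgeR adjusted p = 0.0044), a call kept in all 16 alternatives. LMOD2, the leiomodin of striated muscle, had a mean of 545 ± 175 CPM in the control group (SD, n = 4) against 975 ± 294 CPM in the banded group, and was not called (edgeR adjusted p = 0.0778). Of 7 tested relatives of RGS5 in the R4 family, 0 were called by edgeR, by DESeq2 or by limma-voom, and 0 had an unadjusted p under 0.05. The most abundant per length, RGS2, was at 20.4, 16.2, 38.2 and 83.6 CPM in controls and at 22.1, 33.0, 33.2 and 23.8 CPM in banded animals (edgeR adjusted p = 0.602), and its log2 fold change of -0.50 turned to 0.17 without control 4.

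Patterns closest to a gene were sought among 11320 named genes by the root mean square difference of log2(CPM + 0.5), centred on each gene's own mean, over the 8 libraries. For MYH11 the nearest were SH3RF3 (0.20), ZFP57 (0.20), ZBTB46 (0.21), FREM2 (0.21) and RREB1 (0.24), where the spread of MYH11 itself was 0.71 on that scale. For RGS5 they were MINDY2 (0.046), LDB2 (0.068), PRDM2 (0.094), SIN3A (0.097) and LYST (0.099), against a spread of 0.25 for RGS5 itself. For CNN1, added to this search after its values were seen, they were TNFSF18 (0.36), SERPINE2 (0.45), SLCO6A1 (0.49), C11orf52 (0.51) and CASQ1 (0.51). The spread of CNN1 itself was 1.38. TNFSF18 and SLCO6A1 had control means of only 0.19 and 0.24 CPM, where the offset of 0.5 weighs on the log2 values. None of these 15 genes is one of the 10 members.

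Markers of further cell types gave the setting for the pericyte genes. The 12 endothelial markers, whose cells make PDGF-B, summed to 1137 to 1300 CPM in controls, and to 1129 to 1173 CPM in banded animals (0 called higher and 1 lower by edgeR, 0 and 3 at an unadjusted p under 0.05, 0 and 2 by DESeq2). The 12 fibroblast markers summed to 11522 to 14731 CPM in controls, and to 8974 to 15013 CPM in banded animals (2 called higher and 1 lower). Over all tested genes edgeR called 3.47% higher and 3.5% lower. No marker of either list was at 0 in all libraries, and the part of these cells in the levels of PDGFRB, RGS5 and CSPG4 was not tested. The labels give no sequencing batch, and they number the libraries of the 2 groups in separate blocks, so batch and banding cannot be told apart.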

How the data were processed

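The 4 control and 4 banded libraries were grouped by the treatment in their labels. The deposited counts are raw whole numbers of fragments, made by the authors with featureCounts 1.6.2 on an Ensembl annotation of Sscrofa11.1, using strand and a minimum mapping quality of 10, per the file headers. Trimmomatic and HISAT2 are named in the submitters' processing notes, without versions. The counting command names 24 libraries, of which 8 were analysed here. Gene model length, which is no measurement, came from the same file. The authors' deposited table gives the mean normalised signal, the log2 fold change of control over banded, its error, a Wald score and p-values, under DESeq2 column names, and DESeq2 is also named in the submitters' processing notes. Which model and filters it rests on is not given in the sources used here.

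Members were matched by the gene name in that table, and other genes also by one-to-one human name or a reference table of gene names, which gave 16216 of 31908 models a symbol. Genes were kept by filterByExpr (minimum count 10, minimum total 15), scaled by TMM, and tested with edgeR 4.0.16 (robust quasi-likelihood F test, two-sided, R 4.3.3). The method was first tested on simulated data. There it called 9.1% of changes of 1.5 fold, 51.6% of 2 fold and 93.8% of 4 fold. Of its 106 calls, 7 were unchanged genes. The standard error is the size of the log2 fold change over the square root of F. Each library held 31033679 to 34183338 counts, which puts the limit from a count of 0 at 0.0878 to 0.0967 CPM (3 counts, for counting error). Identical libraries were looked for and not found. The labels do not state separate litters, so p-values measure the spread between these animals.

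Genes were named by a rule: the 10 members, 8 set genes (ACTA2, MYL9, NOTCH3, PDGFRA, PDGFB, PDGFD, MYOCD and SRF), up to 3 called members of each list with the smallest adjusted p, its most abundant member per length, and the 5 nearest patterns of MYH11 and RGS5. CASQ2, EBF2, PIK3R1, ITPR1, PPP1R12B, PPP1R14B, MYL12A and CACNA1C fall outside it and were chosen after their values were seen, to fill in counts. NDE1, SHISA4 and ELOF1 are named for their overlap with members. By RefSeq positions, long non-coding RNA genes also overlap exons of CALD1 and MYLK. The text prints part of the rule's genes, and 1 called gene of the light chain list is not reported here. The members and lists were chosen with earlier results of these data known. Alternatives were DESeq2 1.42.0, limma-voom of limma 3.58.1 with quality weights, median-of-ratios scaling, library size alone, testing without a filter, requiring 50 counts in 4 libraries, removing mitochondrial-genome genes, leaving out each library in turn and, added after seeing the data, leaving out control 4 and banded 3 together. Marker lists not described in the report had these results, where edgeR called 3.47% of all tested genes higher and 3.5% lower. Macrophage markers had 1 called higher and 0 lower of 10 tested by edgeR (8 and 0 at an unadjusted p under 0.05, 5 and 0 by DESeq2). In the same order, Schwann cell markers had 0 and 0 of 9 (0 and 2, 0 and 1). Mesothelial markers had 0 and 0 of 1 (0 and 0, 0 and 0), and adipocyte markers 0 and 0 of 7 (0 and 1, 0 and 1).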

Additional observations from a re-analysis of the deposited data

Results flagged for a closer look

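In the 20 groups of 4 libraries formed by the 10 genes, 2 held a library whose gap to the nearest of the others exceeded Dixon's 95% critical value for its share of the group's range, which chance alone does in about 1 in 20 groups. Both lie in banded 3. CNN1 was at 1348 CPM in banded 3 and at 156 to 349 CPM in the other banded libraries (gap 0.838 of the range, just past the critical value), and LMOD1 was at 2.72 CPM against 9.32 to 9.98 CPM (gap 0.908 of the range). On the log2(CPM + 0.5) scale the gap was 0.627 of the range for CNN1, which is under the critical value, and 0.944 for LMOD1, which is past it. The means in the authors' deposited table match the 7 libraries without banded 3.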

How the results depend on the processing

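No paired analysis was possible because the labels give no replicate numbers that the groups share. The count of 954 called genes was 1631 with DESeq2 and 399 to 962 without 1 library, with 399, 415 and 409 without control 1, 2 or 3. Of the 10 members, 0 were called with all 8 libraries, 4 with DESeq2, 2 with limma-voom and 1 with library size alone. The count was 2 without both control 4 and banded 3, and 0 to 2 without 1 library (2 without banded 3 and 2 without banded 4). Over all tested genes, 811 of 13697 were called with library size alone. It was 938 of 13965 genes without banded 3, and 962 of 13988 genes without banded 4. Of 151 distinct genes tested in the surrounding lists, 25 were called with all 8 libraries, against 6.97% of all tested genes. Without 1 library 10 to 26 were called (11, 10 and 10 without control 1, 2 or 3). Over all tested genes, the calls without control 1, 2 or 3 were 399 of 13927, 415 of 13926 and 409 of 13906. Of the 25, 9 kept their call whichever 1 library was left out. The cause was not tested. Without 1 library, the log2 fold change ranged from -0.072 to 0.066 for CALD1, from -0.76 to 0.17 for RGS2 and from -0.085 to 0.41 for TAGLN. The sign of CALD1 turned with limma-voom (-0.0016), with library size alone (-0.074), without control 4 (-0.0093), without banded 2 (-0.072) and without both control 4 and banded 3 (-0.00037). TAGLN turned without banded 3 (-0.085) and without both (-0.064), and RGS2 without control 4 (0.17) and without both (0.076). Over the 16 alternatives the other 8 members kept their direction. Library size alone put 37.4% of calls on the higher side, against 49.8%. With 4 animals per group, differences near the size of those in SMTN or CSPG4 lie close to or under what the test resolves, and missing the threshold does not show that the groups are alike.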
